A study of Mus musculus with 4 samples.

Results

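Transcripts of 9 genes linked to inhibitory control of lymphocytes other than PD-1 were followed in single lung leukocytes: Lag3, Havcr2, Tigit, Ctla4, Tox, Cd160, Entpd1, Cd96 and Vsir. The genes were taken by name from the gene symbols of the deposited matrices, where all 9 were present among 31053 genes. The libraries came from lungs of Balb/c mice, perfused and digested 14 days after 4T1 cells were injected intravenously. 4T1 is a mammary tumour line of Balb/c origin that seeds the lung by this route. In 2 libraries, labelled WT, the injected 4T1 cells were unmodified, and in the other 2, labelled PD-L1 KO, they were 4T1 cells without PD-L1, the ligand of PD-1. The mice themselves carry no stated genetic change, and in both groups the leukocytes had been enriched with magnetic beads against CD45, a surface protein of nearly all leukocytes. The labels name neither the mouse behind each library nor whether the knockout line is 1 clone.

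Where 4 values stand in a row, they follow the library order of WT 1, WT 2 and then the first and second PD-L1 KO library. The names of the deposited files carry the opposite condition to the sample labels in all 4 libraries. The labels were used as given, so every direction below between WT and PD-L1 KO rests on them. WT 1 and the like stand throughout for the library labelled so. Cd274, the gene of PD-L1, is carried by host leukocytes as well as by 4T1 cells, and which cells its UMIs came from was not tested. It stood at 30.1 and 23.2 CPM (UMIs per 1000000 UMIs of the cells summed) in the libraries labelled WT and at 46.3 and 38.8 in those labelled PD-L1 KO, so that both of the latter were higher. The cells were enriched for leukocytes and no gate was for 4T1 cells, so the Cd274 level cannot check the labels.

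Inhibitory receptors are surface proteins that dampen T cell or NK cell signalling after activation. On T cells that meet antigen for a long time in tumours or chronic infection, several are often carried together, a state called exhaustion. CTLA-4 competes with the co-stimulator CD28 for CD80 and CD86 and is held at high levels by regulatory T cells. LAG-3 binds MHC class II, and TIM-3, the product of Havcr2, is carried by exhausted T cells and by myeloid cells as well. TIGIT and CD96 bind nectin-family proteins that the activating receptor CD226 also binds, and CD160 binds HVEM, the product of Tnfrsf14. Entpd1 encodes CD39, an enzyme that breaks down extracellular ATP, and Vsir encodes VISTA, a checkpoint protein of myeloid and T cells. Tox is no receptor but a nuclear protein that shapes the exhausted T cell programme. Transcripts were measured, not surface protein.

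The cells were sorted into types by UMI counts of marker genes, none of which is one of the 9. A UMI marks 1 captured RNA molecule. T cells had at least 2 UMIs of the Cd3 genes, and CD8 cells among them had Cd8a or Cd8b1 without Cd4 or Foxp3. CD8 cells with at least 1 UMI of Gzmb, Gzmk, Cxcr6 or Pdcd1 are called activated CD8 cells. Regulatory T cells carried Foxp3, conventional CD4 cells carried Cd4 without Foxp3, and NK cells had at least 2 UMIs of Ncr1, Klrb1c and Klre1 and none of the Cd3 genes. Over the 4 libraries 133 activated CD8 cells (25 to 43 per library), 57 regulatory T cells (12 to 15), 226 conventional CD4 cells (38 to 72) and 355 NK cells (71 to 133) were counted. A further 224 CD8 cells without an activation gene served for comparison. Among genes outside the gates, Ikzf2 stood at 693 to 1321 CPM in regulatory T cells, and Prf1 at 1478 to 2118 CPM in NK cells. Other markers were uneven between libraries, as given below: Il2ra and Ncr1 in regulatory T cells, and Lef1 and Ccr7 in activated CD8 cells.

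The 4 libraries held 17618220 to 19635983 UMIs, and 9054 of 10382 barcodes were kept. Pairs of libraries shared 0 to 3 barcodes. Of the 2728 cells that met a T cell or NK cell gate, 1369 (50.2%) also met the gate of another lineage and were left out. The monocyte/macrophage gate includes Ccr2, which T cells can carry, so the comparisons between gates and within each gate were recomputed with these cells kept and with that gate lacking Ccr2, other than the interaction tests and the split by Pdcd1. In the library labelled WT 2 the activated CD8 cells stood apart: Lef1 and Ccr7, genes of naive T cells, stood at 395 and 415 CPM, against 38.1 to 125 and 114 to 207 in the other 3 libraries. Their part in the results below was not tested.

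All 9 genes lie on chromosomes of mm10, the build named in the submitters' processing notes, at these positions of the GRCm38 annotation: Lag3 at chr6:124904361-124911705, Havcr2 at chr11:46454935-46481255, Tigit at chr16:43648867-43664146, Ctla4 at chr1:60887000-60915832, Tox at chr4:6686353-6991557, Cd160 at chr3:96798763-96829351, Entpd1 at chr19:40612366-40741602, Cd96 at chr16:46035657-46120251 and Vsir at chr10:60346851-60372684. All 9 are protein-coding genes. On the same strand Ctla4 overlaps the pseudogene Rpl18-ps1 and Entpd1 overlaps 3 other annotated genes, so their UMIs are less certain. The promoters of Havcr2 and Ctla4 are shown because Havcr2 was found in activated CD8 and myeloid cells and Ctla4 in T cells. Each window spans 250 bases before to 50 after the annotated start (RefSeq, GRCm38.p6), on the + strand of chr11:46454681-46454980 and chr1:60908775-60909074. The RefSeq start used for Ctla4 lies inside the gene span given above, which begins further upstream. Capitals mark matches to the letters of an AP-1 motif (TGANTCA), an NFAT motif (GGAAAA) or a RUNX motif (TGTGGT), searched on both strands.

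Havcr2: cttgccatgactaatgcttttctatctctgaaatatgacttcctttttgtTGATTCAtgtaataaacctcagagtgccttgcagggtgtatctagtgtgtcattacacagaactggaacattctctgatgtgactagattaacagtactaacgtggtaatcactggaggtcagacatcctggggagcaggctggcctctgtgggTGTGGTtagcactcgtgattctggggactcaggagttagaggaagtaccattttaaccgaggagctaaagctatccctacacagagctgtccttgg

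Ctla4: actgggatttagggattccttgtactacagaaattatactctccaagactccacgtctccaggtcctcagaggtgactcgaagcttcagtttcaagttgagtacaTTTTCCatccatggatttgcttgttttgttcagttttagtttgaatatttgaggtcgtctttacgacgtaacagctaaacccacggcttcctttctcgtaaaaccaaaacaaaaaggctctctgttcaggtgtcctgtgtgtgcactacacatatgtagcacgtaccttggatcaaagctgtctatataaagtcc

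The Havcr2 window held 1 AP-1 and 1 RUNX match, and the Ctla4 window held 1 NFAT match, read on the opposite strand as TTTTCC. Of 32851 promoter windows of 300 bases, 7.81% held the AP-1 letters, 23.4% the NFAT letters and 16.8% the RUNX letters. A match is a description of these letters and no evidence of binding.

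Across the 13 gated cell types the 9 genes fell into different patterns, with Lag3 and Ctla4 high in few types and Vsir and Entpd1 in many. Levels are CPM of the summed cells of a type in a library, given as the mean over the 4 libraries with its SD. They depend on the length of 3' ends captured and are compared within a gene, not between genes. In bulk sums of a gate, fewer cells with a transcript and less of it per cell cannot be told apart, so the share of cells with at least 1 UMI is given beside them.

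**Figure D1:**
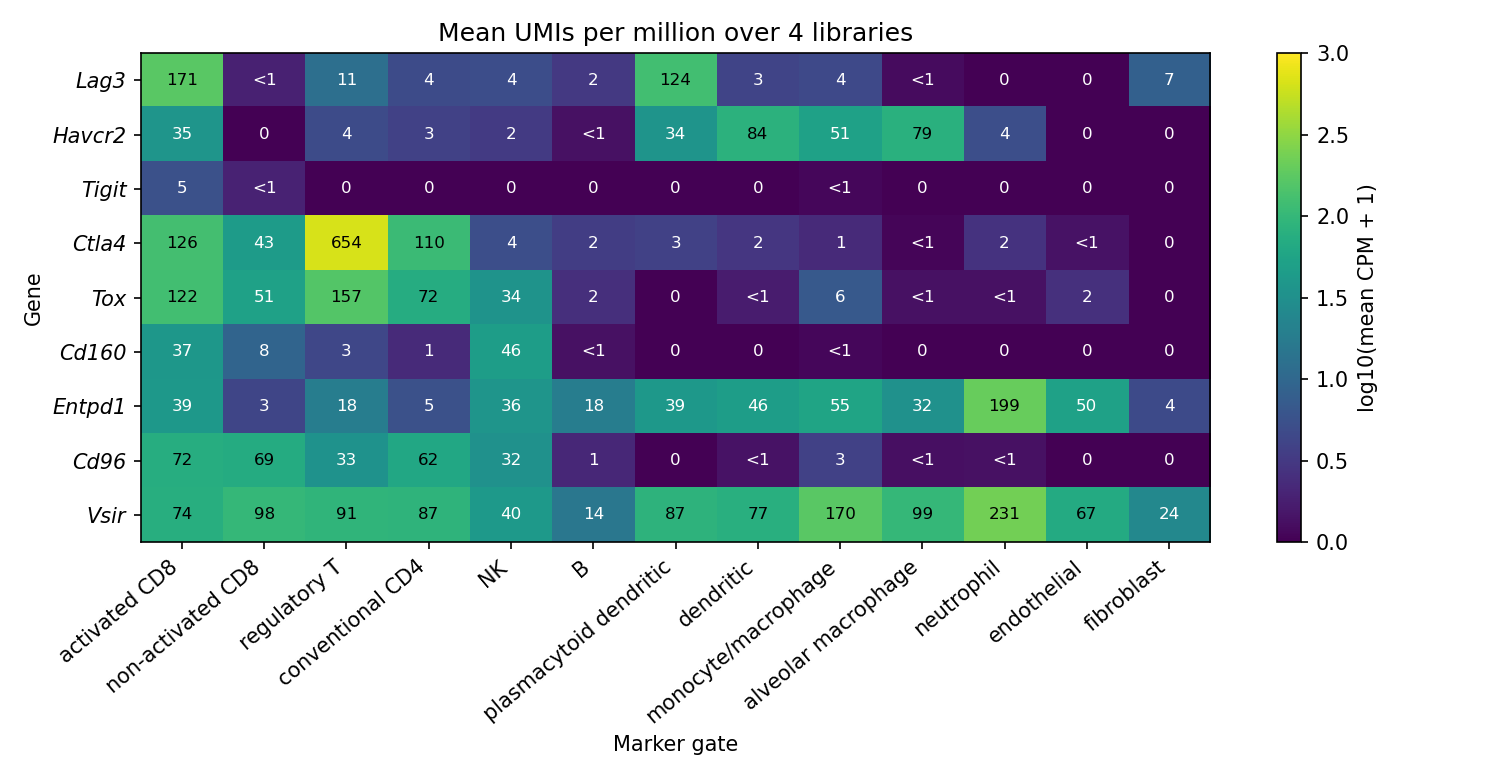
Mean level of each gene (rows) in each of the 13 marker gates (columns), in CPM averaged over the 4 libraries, with colour on a log10(CPM + 1) scale. Ctla4 in regulatory T cells (654) has the brightest cell, Vsir (231) and Entpd1 (199) peak in neutrophils, and Tigit has 4.59 in activated CD8 cells.

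Lag3 was found in activated CD8 cells and in plasmacytoid dendritic cells, and was scarce elsewhere. In activated CD8 cells it stood at 241 CPM in WT 1, 39.5 in WT 2, 212 in PD-L1 KO 1 and 190.4 in PD-L1 KO 2, from 57, 6, 75 and 35 UMIs. WT 2 was low, and the other 3 libraries lay close together. The share of cells with a Lag3 UMI was 50% of 40 cells, 12% of 25, 39.5% of 43 and 28% of 25, in the same order. In B cells, taken as the background for free RNA, the mean share was 0.411%, at median depths of 2764 to 2817 UMIs per cell against 4344 to 6021 in activated CD8 cells. With every cell thinned to 1500 UMIs, the Lag3 share in activated CD8 cells was 17.0% ± 9.37 (SD, n = 4) and no B cell had a UMI.

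In plasmacytoid dendritic cells Lag3 stood at 111 CPM in WT 1, 58.4 in WT 2, 144 in PD-L1 KO 1 and 182 in PD-L1 KO 2, from 9, 5, 15 and 28 cells. These cells carried 55 Lag3 UMIs in all, with a UMI in 29 of 57. The mean of 124 ± 52.3 CPM (SD, n = 4) overlapped that of activated CD8 cells, 171 ± 90.0. All other types had means between 0 and 11.5 CPM, and their ranges overlapped those of their neighbours in the order. Conventional CD4 cells (3 UMIs), NK cells (4 UMIs) and regulatory T cells (3 UMIs) thus lay near the level of single molecules.

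Havcr2 had its highest levels in myeloid cells. In dendritic cells it stood at 81.5 CPM in WT 1, 119 in WT 2, 73.2 in PD-L1 KO 1 and 62.3 in PD-L1 KO 2, and in alveolar macrophages at 78.9, 67.8, 91.5 and 79.1 CPM in the same order. These 2 types overlapped, and monocytes and macrophages followed at 50.8 ± 6.20 CPM (SD, n = 4), below both. Among lymphocytes it was seen in activated CD8 cells, at 63.5, 0, 34 and 43.5 CPM in library order, from 15, 0, 12 and 8 UMIs. WT 2 had none in 25 cells. The 224 non-activated CD8 cells had 0 UMIs, regulatory T cells 1, NK cells 2 and conventional CD4 cells 3. These low counts hold with mixed-lineage cells left out. With them kept, conventional CD4 cells had 24, 33, 26 and 19 Havcr2 UMIs in library order and non-activated CD8 cells 18, 5, 33 and 17, and the share of conventional CD4 cells with a UMI was 13% against 0.810%.

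Ctla4 was highest in regulatory T cells in every library, at 448 CPM in WT 1, 486 in WT 2, 870.0 in PD-L1 KO 1 and 813 in PD-L1 KO 2. These values lay above every value of every other type. Activated CD8 cells followed at 161, 32.9, 173 and 136 CPM in the same order, again with WT 2 low, and overlapped conventional CD4 cells at 122, 97.1, 123 and 98.3 CPM. Non-activated CD8 cells, at 42.8 ± 14.4 CPM (SD, n = 4), lay below conventional CD4 cells in every library. NK cells had 4 UMIs in 355 cells. A Ctla4 UMI was found in 79.6% ± 11.6 (SD, n = 4) of regulatory T cells, 38.5% ± 18.2 of activated CD8 cells, 20% ± 4.34 of conventional CD4 cells and 0.851% ± 0.630 of NK cells, beside 0.849% of B cells. The NK share was thus at the background.

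Tox was carried by all T cell types and at a lower level by NK cells. Regulatory T cells had 122, 213, 135 and 159 CPM in library order. Activated CD8 cells had 182, 98.7, 122 and 87.0 CPM, and the 2 types overlapped. Conventional CD4 cells had 71.7 ± 28.1 CPM (SD, n = 4), non-activated CD8 cells 51.4 ± 15.6 and NK cells 33.7 ± 14, each overlapping the next. Monocytes and macrophages, at 5.93 ± 3.93 CPM, lay below NK cells in every library, and the remaining types had 5 UMIs or fewer.

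Cd160 was found in NK cells and activated CD8 cells. NK cells had 36.2, 67.5, 27.8 and 53.0 CPM in library order, and activated CD8 cells had 25.4, 6.58, 85.0 and 32.6 CPM from 6, 1, 30 and 6 UMIs. PD-L1 KO 1 held 30 of the 43 UMIs of activated CD8 cells, and the 2 types overlapped. Non-activated CD8 cells had 8 UMIs, and regulatory T cells, conventional CD4 cells, B cells and monocytes and macrophages 1 each. The 6 remaining types had none.

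Cd96, which binds the nectin-like protein CD155, was found across T cell types. Its level was 72.2 ± 17.7 CPM (SD, n = 4) in activated CD8 cells, 69.5 ± 18.8 in non-activated CD8 cells, 62.5 ± 12.4 in conventional CD4 cells, 33.1 ± 20.9 in regulatory T cells and 32.0 ± 20.8 in NK cells, with each range overlapping the next. The type next in order was monocytes and macrophages at 2.85 ± 1.21 CPM, below every NK value.

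Vsir and Entpd1 had their highest CPM in neutrophils. Entpd1 stood there at 209, 218, 172 and 198 CPM in library order, above all other types, and Vsir at 215, 255, 210.2 and 242 CPM. Vsir was second in monocytes and macrophages, at 164, 199.9, 168 and 149 CPM, below neutrophils without overlap. CPM is taken over the UMIs of a type, and the order per cell was another. Neutrophils held 594 Vsir UMIs in 1291 cells, and monocytes and macrophages 1099 in 845. Entpd1 had 519 UMIs in the 1291 neutrophils and 134 in 223 dendritic cells. T cell types had similar Vsir means, from 74.1 ± 11.1 CPM (SD, n = 4) in activated CD8 cells to 98.4 ± 28.4 in non-activated CD8 cells, and NK cells had 40.2 ± 17.2. Entpd1 in activated CD8 cells was 88.9 CPM in WT 1 and 26.3, 19.8 and 21.8 in the other 3 libraries. WT 1 held 21 of the 36 UMIs there. NK cells had 35.7 ± 3.15 CPM, regulatory T cells 5 UMIs and conventional CD4 and non-activated CD8 cells 4 each. The share of neutrophils with an Entpd1 UMI, 30.4%, was above that of every lymphocyte type with mixed-lineage cells left out, so neutrophils give no background for this gene. With them kept, the Entpd1 share was 31.9% in regulatory T cells (6.67% without them), 30.0% in activated CD8 cells (13.7%) and 21.5% in conventional CD4 cells (2.18%), and the first 2 were above neutrophils in 2 of 4 libraries. B cells had 17.9 ± 7.01 CPM.

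Tigit was nearly undetected. The 13 types held 7 Tigit UMIs in all, of which 5 were in activated CD8 cells, 3 in WT 1 and 2 in PD-L1 KO 1. None was seen in 57 regulatory T cells, 226 conventional CD4 cells or 355 NK cells. With regulatory T cells that met another lineage's gate kept, 4 of 151 had a UMI, all in PD-L1 KO 1. At this depth its level in these cells cannot be compared.

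**Figure D2:**
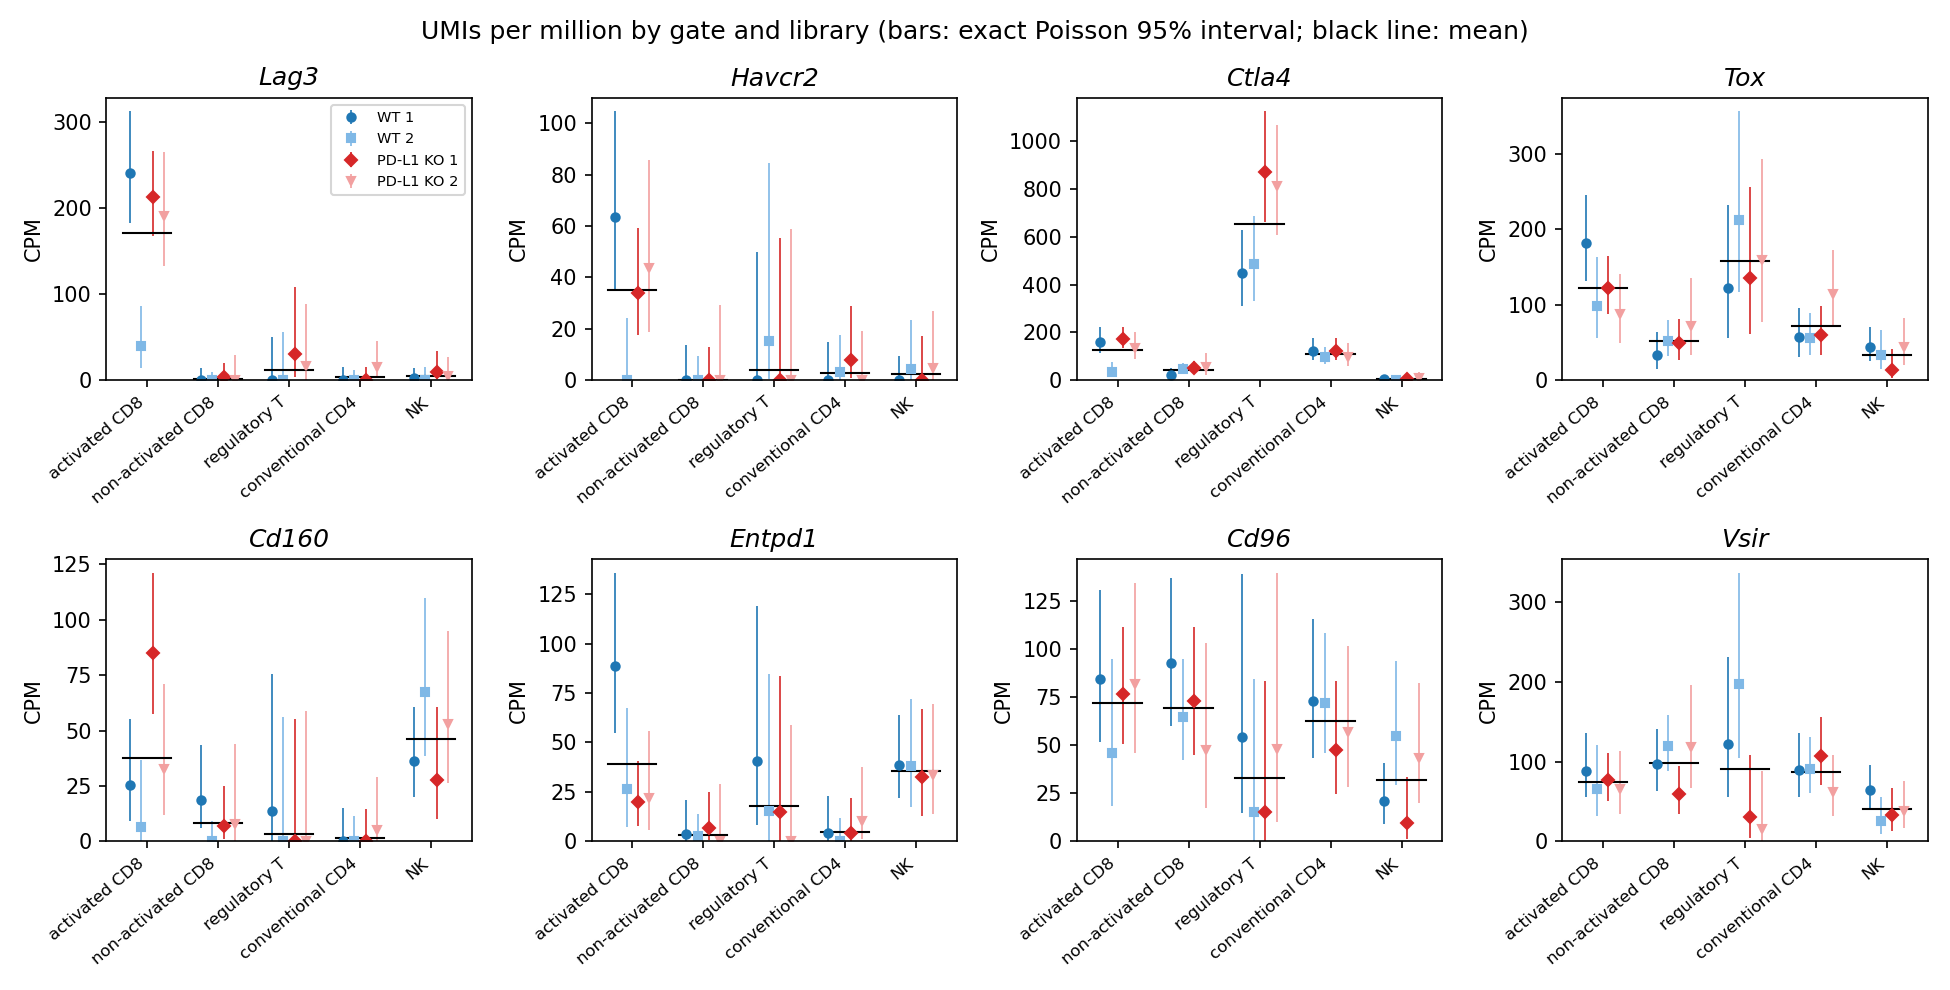
Level of 8 genes (panels) in the 5 lymphocyte gates, in CPM on linear axes that differ between panels, with 1 point per library, exact Poisson 95% intervals that cover counting error only, and the mean of the 4 libraries as a black line. Lag3 and Ctla4 of activated CD8 cells are low in WT 2 (39.5 and 32.9), and Ctla4 of regulatory T cells is higher in both PD-L1 KO libraries (870.0 and 813) than in both WT libraries (448 and 486).

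Activated CD8 cells were then compared with the other CD8 cells of the same libraries, by edgeR's quasi-likelihood test on summed UMIs with the library as a block. Log2 differences are in TMM-scaled counts, and p-values are adjusted by Benjamini-Hochberg over all genes tested. The ± is an approximate standard error, the absolute log2 difference divided by the square root of the test's F statistic. Of the 9 genes, 6 passed the filter on low counts, and 4 of these were higher in activated cells: Lag3 by 6.54 ± 0.51 (adjusted p 1.39e-13), Havcr2 (adjusted p 0.00033), Ctla4 by 1.28 ± 0.30 (adjusted p 0.00104) and Tox by 1.08 ± 0.27 (adjusted p 0.00255). Of all 4238 genes tested, 25.3% were called, 12.7% higher and 12.6% lower. Havcr2 had 35 UMIs against 0, which is at least 13.7-fold higher when the zero is set to 3 counts over the group, and Lag3 had 173 UMIs against 1. Summed over the libraries, Ctla4 was 3.36-fold and Tox 2.59-fold higher in CPM. A gene such as Havcr2 passed the filter through activated cells alone, so the count of 4 is a description of the genes, not support for a pattern. Cd96 (log2 difference -0.25 ± 0.27) and Vsir (-0.55 ± 0.25, adjusted p 0.108) were not called. In DESeq2, after thinning to 1500 UMIs, without WT 1, or with mixed-lineage cells kept, Lag3 was the 1 gene of the 9 called, and without PD-L1 KO 1 Ctla4 missed the threshold (adjusted p 0.052). Havcr2 was called in 1 of the 4 fits with a library left out, the one without WT 2, and in the other 3 it did not pass the filter on low counts. With mixed-lineage cells kept, the Lag3 difference was 3.22 (adjusted p 0.00565) and the Havcr2 difference 0.26 (adjusted p 0.754).

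Between activated CD8 and conventional CD4 cells, Lag3 was higher in activated CD8 cells by 5.39 ± 0.50 (edgeR adjusted p 1.52e-06) and Havcr2 by 3.06 ± 0.91 (adjusted p 0.0258), 2 of 6 genes tested. Of all genes, 19.1% were called, 9.12% higher and 9.98% lower. Lag3 (173 UMIs against 3) and Havcr2 (35 against 3) passed the filter through activated CD8 cells, so the count of 2 is a description. The Havcr2 call held in 1 of the 4 fits with a library left out, the one without WT 2. In the others Havcr2 did not pass the filter on low counts, and after thinning it was not called. It also ended in DESeq2 (adjusted p 0.123) and with mixed-lineage cells kept, where the difference was -0.07 (adjusted p 0.948), while Lag3 was 3.12 higher there (adjusted p 0.00322). Ctla4 (0.02 ± 0.26), Cd96 (0.08 ± 0.28), Vsir (-0.40 ± 0.24) and Tox (0.67 ± 0.27, adjusted p 0.0915) were not called, but Tox passed without PD-L1 KO 2 (adjusted p 0.0135).

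Regulatory T cells were compared with conventional CD4 cells in the same way. Ctla4 was higher by 2.26 ± 0.23 (edgeR adjusted p 2.53e-07), 5.89-fold in summed CPM. It was the 1 gene called among the 3 that passed the filter, against 11.5% of all 2808 genes (5.09% higher, 6.45% lower). Tox was 0.92 ± 0.32 higher and missed the threshold (adjusted p 0.064). It passed without PD-L1 KO 2 (adjusted p 0.0298) and with the monocyte gate lacking Ccr2 (adjusted p 0.0117). Against activated CD8 cells, regulatory T cells had more Ctla4 by 2.26 ± 0.24 (adjusted p 3.24e-09) and less Lag3, at -3.93 ± 0.55 (adjusted p 1.04e-06). These were 2 of 4 genes tested, against 8.31% of all genes (5.14% higher, 3.17% lower). Lag3, with 173 UMIs against 3 in regulatory T cells, passed the filter through activated CD8 cells, so the count of 2 is a description. After thinning to 1500 UMIs, Lag3 was not called here and Ctla4 was. The comparisons above share cells, of activated CD8, conventional CD4 or regulatory T type, with one another.

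In NK cells 5 of the 6 genes tested were lower than in activated CD8 cells. Of all 4284 genes, 26.5% were called (12.5% higher, 14% lower). Lag3 and Ctla4, with 4 UMIs each in 355 NK cells, passed the filter through activated CD8 cells, so the count of 5 is a description as well. The log2 differences were -5.47 ± 0.40 for Lag3 (edgeR adjusted p 4.51e-10), -5.01 ± 0.44 for Ctla4 (adjusted p 9.02e-09), -2.01 ± 0.30 for Tox (adjusted p 1.96e-05), -1.43 ± 0.38 for Cd96 (adjusted p 0.00614) and -0.98 ± 0.30 for Vsir (adjusted p 0.0187). The Cd160 difference was 0.05 ± 0.45 (adjusted p 0.949). The calls of Cd96 and Vsir ended in DESeq2, with mixed-lineage cells kept and without PD-L1 KO 1, and that of Cd96 also without WT 1. After thinning to 1500 UMIs, Lag3 was the 1 gene called, and the calls of Ctla4, Tox, Cd96 and Vsir all ended. Thinning left 1818 genes to test, so a lost call is not a lost difference. Mean shares in activated CD8 and NK cells were then 13.2% and 0.891% for Ctla4 and 13.2% and 2.37% for Tox. They were 6.72% and 5.52% for Cd96 and 8.27% and 5.82% for Vsir.

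**Figure D3:**
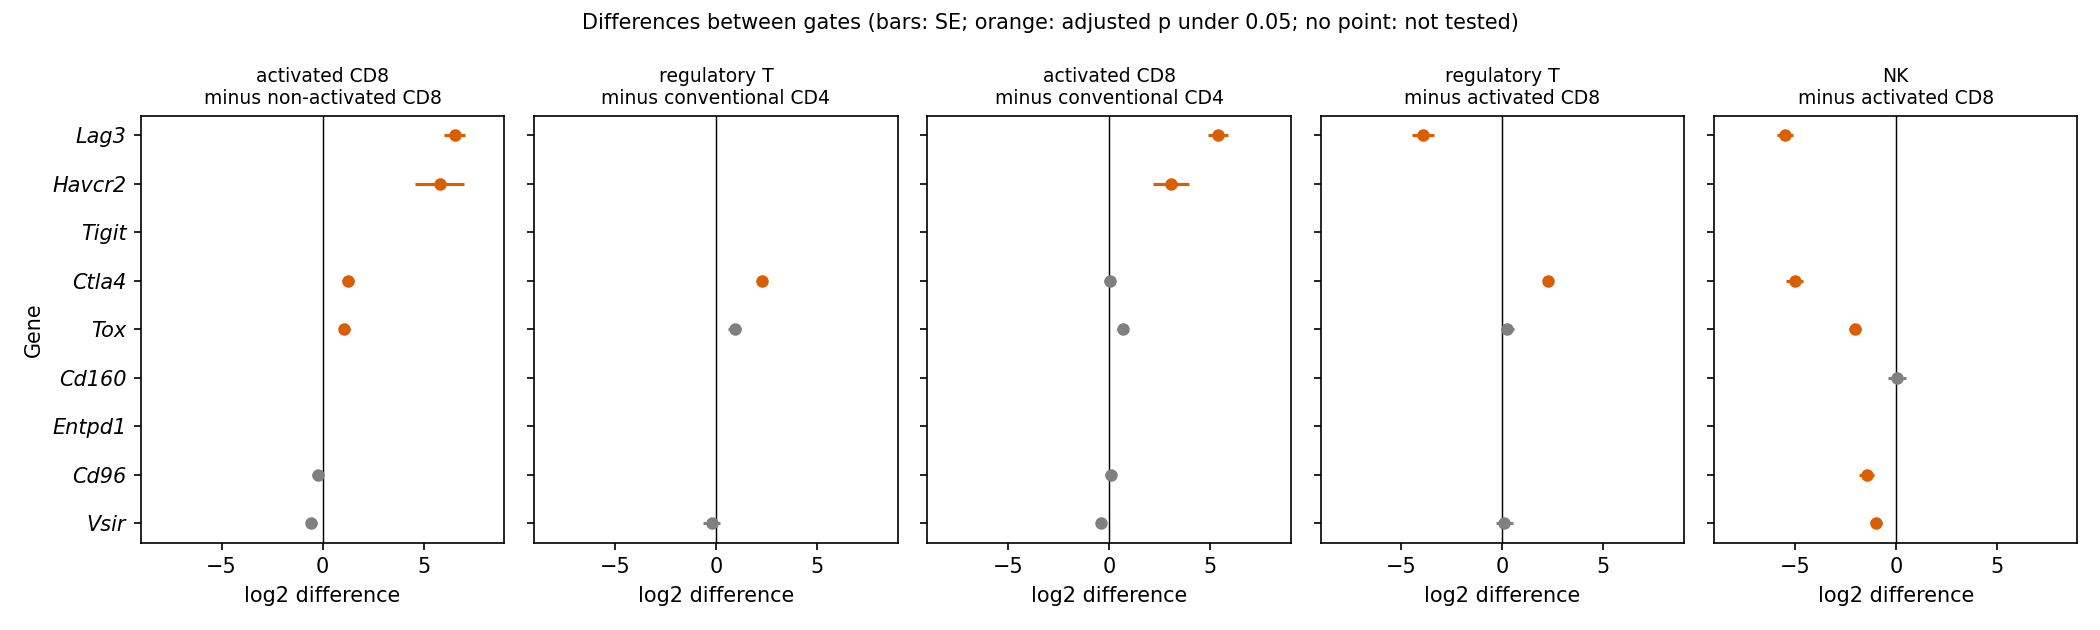
Log2 differences between gates (horizontal axis, bars are standard errors) for each gene, with 1 panel per comparison, orange where the edgeR adjusted p was under 0.05 and gray otherwise; genes that did not pass the filter have no point. Lag3 lies at 6.54 in the first panel and at -5.47 in the last, and Ctla4 at 2.26 in the second and the fourth.

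Other genes of this biology moved between the same gates. Of 20 other inhibitory receptors and exhaustion-linked regulators, Pdcd1 is part of the activation gate and was left out of the counts given here. Of the other 19, 9 could be tested in activated against non-activated CD8 cells, and 6 were higher and 1 lower, beside 12.7% and 12.6% of all genes. The median log2 difference was 1.20 beside 0.01 over all genes. Id2, a transcription regulator of effector cells, was 2.06 ± 0.21 higher (edgeR adjusted p 1.04e-10), Bhlhe40 3.50 ± 0.37 higher (adjusted p 4.56e-10) and Rgs16, a regulator of G-protein signalling, 5.47 ± 0.65 higher (adjusted p 8.22e-09). Tcf7, the transcription factor of naive and stem-like T cells, was lower, at -1.91 ± 0.25 (adjusted p 8.01e-08). In regulatory T against conventional CD4 cells 3 of 6 were higher and 1 lower, beside 5.09% and 6.45% of all genes. Among them were Klrg1 at 3.34 ± 0.76 (edgeR adjusted p 0.00297) and Tcf7 at -2.15 ± 0.27 (adjusted p 4.35e-06). In NK against activated CD8 cells 9 of 14 were higher and 4 lower, beside 12.5% and 14% of all genes, with Eomes at 2.89 ± 0.23 (adjusted p 1.71e-09) and Cd244 at 2.71 ± 0.26 (adjusted p 4.55e-08) higher in NK cells and Cd5 at -6.18 ± 0.59 (adjusted p 3.71e-08) lower. These lists were drawn up with earlier results of these data known. Their genes, too, can pass the filter through the gate where they are high. The counts and medians given here, and those of the partners below, are thus descriptions.

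Of 19 partners and counter-receptors of the 9 genes, 8 could be tested between the CD8 gates. In activated cells 0 were lower and 3 higher, beside 12.6% and 12.7% of all genes. They were Lgals3, a galectin that binds LAG-3, at 2.50 ± 0.35 (edgeR adjusted p 2.82e-07), Hmgb1, a ligand of TIM-3, at 0.63 ± 0.15 (adjusted p 0.00184) and Nt5e, the ectonucleotidase CD73 that acts downstream of CD39, at 2.03 ± 0.62 (adjusted p 0.0123). The median over the 8 was 0.14, beside 0.01 over all genes. Cd226, the activating partner of TIGIT and CD96, was 2.10 ± 0.31 higher in activated CD8 than in conventional CD4 cells (adjusted p 0.000176), where Cd28 was lower at -0.58 ± 0.16 (adjusted p 0.0198).

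Within activated CD8 cells the 9 genes were not spread evenly. The cells were split by whether they held a Pdcd1 UMI, a comparison added after seeing the data, with 56 cells with and 77 without. Lag3 stood at 356, 81.8, 350.3 and 318 CPM in cells with Pdcd1 in library order, and at 64.4, 19.4, 20.3 and 0 CPM in cells without. Cells with Pdcd1 were higher in 4 of 4 libraries. The Lag3 share was 82.4% of 17 cells, 40% of 5, 63.6% of 22 and 58.3% of 12 with Pdcd1, and 26.1% of 23, 5% of 20, 14.3% of 21 and 0 of 13 without. Median depth also differed, at 6797, 8191, 6856 and 9307 UMIs per cell with Pdcd1 and 3356, 4390, 5015 and 5248 without. With every cell thinned to 1500 UMIs and split again by Pdcd1, the Lag3 share was 37.5% of 8 cells against 20% of 30, 0 of 1 against 4.17% of 24, 28.6% of 14 against 10.3% of 29, and 33.3% of 6 against 21.1% of 19. The gap was smaller there, and in WT 2 no cell with both was left. Thinning also took Pdcd1 UMIs away, which moved cells into the group without, and lowered the shares. The part of depth in the gap thus cannot be told from these shares.

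In the edgeR test on these sums with the library as a block, Lag3 was 3.27 ± 0.43 higher with Pdcd1 (adjusted p 1.26e-05) and Ctla4 1.04 ± 0.33 higher (adjusted p 0.0465), 2 of 5 genes tested against 9.72% of all 2182 genes (4.08% higher, 5.64% lower). Lag3 had 6, 2, 3 and 0 UMIs in cells without Pdcd1, in library order, so the count of 2 is a description as well. Ctla4 missed the threshold without each of the 4 libraries in turn (edgeR adjusted p 0.0961 to 0.193). Tox was 1.13 ± 0.37 higher (adjusted p 0.0538), with 182, 184, 175 and 136 CPM against 182, 58.2, 47.4 and 13.5 CPM. WT 1 was level and the other 3 libraries were higher with Pdcd1. Without WT 1, Tox passed (adjusted p 0.0197). Vsir was not higher (-0.51 ± 0.44), nor was Cd96 called (0.84 ± 0.46, adjusted p 0.291), though its CPM was higher with Pdcd1 in 4 of 4 libraries. Havcr2 had 32 of its 35 UMIs, and Entpd1 34 of its 36, in cells with Pdcd1, but neither passed the filter on low counts. All 5 Tigit UMIs lay in cells with Pdcd1 too.

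**Figure D4:**
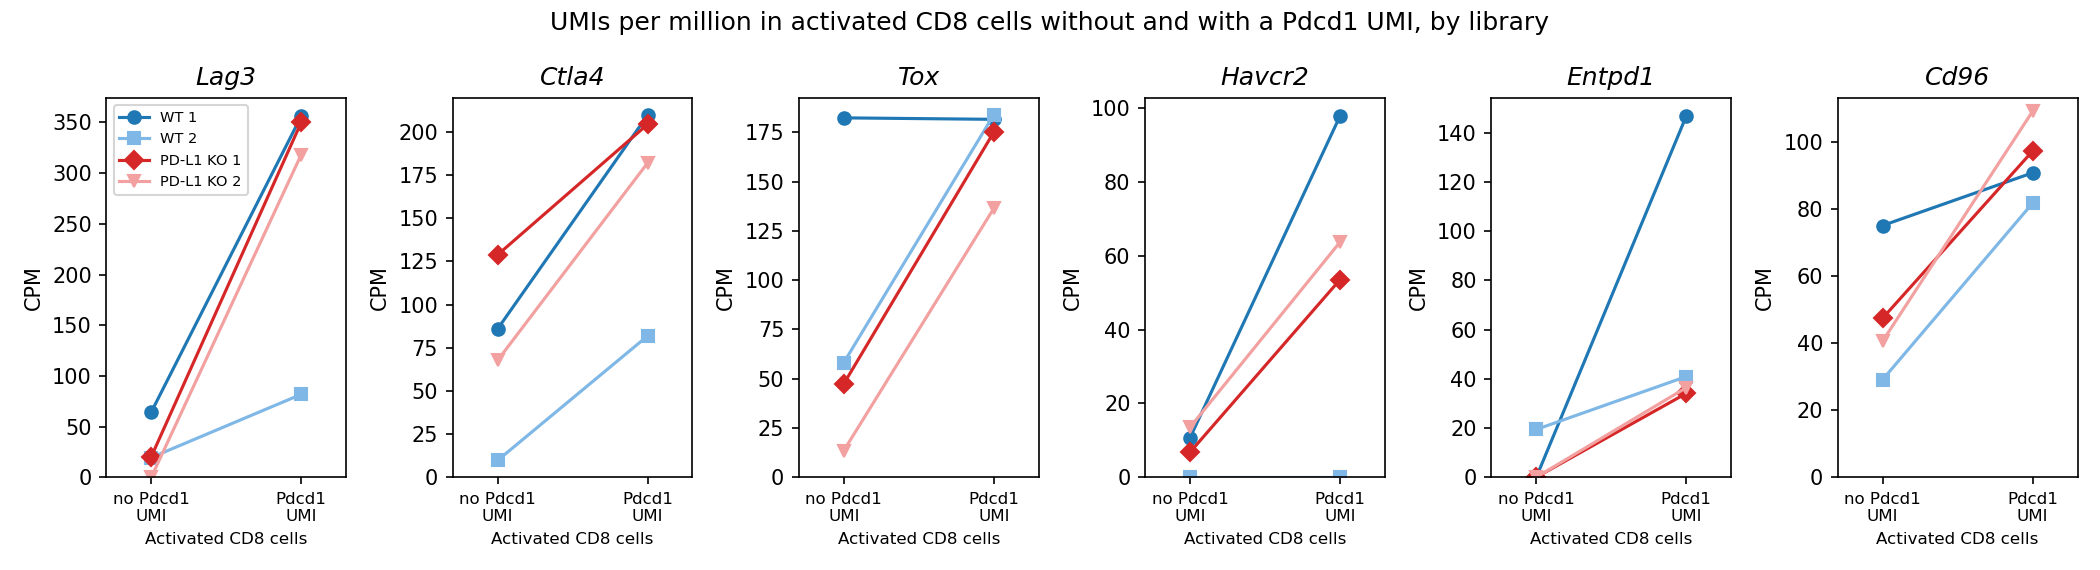
Level of 6 genes in activated CD8 cells without and with a Pdcd1 UMI, in CPM on linear axes that differ between panels, with 1 line per library and no error drawn. Lag3 rises along all 4 lines, from 64.4, 19.4, 20.3 and 0 to 356, 81.8, 350.3 and 318 CPM, and Tox along 3, with WT 1 flat at 182.

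Counting how many of the 9 genes had a UMI in a cell, 59.4% ± 19.1 (SD, n = 4) of activated CD8 cells and 59.2% ± 12.9 of regulatory T cells held 2 or more. Conventional CD4 cells had 28.7% ± 5.82, non-activated CD8 cells 30.3% ± 8.36, NK cells 8.36% ± 4.68 and B cells 1.53% ± 0.847. WT 2 had the lowest share of activated CD8 cells, 36%, and the highest library had 77.5%. Thinned to 1500 UMIs per cell, the shares were 17.7% ± 13.4, 22.9% ± 6.44, 5.44% ± 1.39, 5.77% ± 2.20, 3.79% ± 2.60 and 0, in the same order. The order of the types was thus kept except between the first 2, which overlapped.

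The design compares leukocytes around tumour cells with and without PD-L1. The directions rest on labels that the file names do not bear out and that the Cd274 levels cannot check. None of the 9 genes passed the test between PD-L1 KO and WT in any of 7 types, but only 1 to 5 could be tested in each. The types were the 4 lymphocyte gates, non-activated CD8 cells, monocytes and macrophages, and dendritic cells. Few genes of any kind were called: 0.0313% of 3191 genes in activated CD8 cells, 0.0926% in regulatory T cells, 0.472% in conventional CD4 cells (0.383% higher, 0.0884% lower) and 0% in the other 4 types. At an unadjusted p under 0.05 the members numbered 1 of 2 tested in regulatory T cells, 1 of 4 in monocytes and macrophages and 0 elsewhere. All genes numbered 90 of 1080, 687 of 9063 and 134 to 375 of 3191 to 6851, respectively. An exact two-sided permutation test of 2 against 2 libraries has 3 splits, so its smallest p is 1 in 3.

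In activated CD8 cells 5 genes could be tested. Lag3, with the values given above (241 and 39.5 CPM in WT, 212 and 190.4 in PD-L1 KO), differed by 0.46 ± 0.47 on the log2 scale, and the groups overlapped. Ctla4 differed by 0.61 ± 0.45, Tox by -0.41 ± 0.34, Cd96 by 0.22 ± 0.40 and Vsir by -0.12 ± 0.38 (edgeR adjusted p 0.994 each). The Lag3 and Ctla4 values hung on which WT library was set against PD-L1 KO. Without WT 1, leaving WT 2 alone and assumed to vary like the other group, Lag3 was 2.28 higher in PD-L1 KO (adjusted p 0.0015) and Ctla4 2.18 higher (adjusted p 0.00924). Without WT 2 the Lag3 difference was -0.15 (adjusted p 0.979). WT 2 is the library with the high Lef1 and Ccr7 in this gate, and with 20% of its cells carrying Pdcd1, against 42.5% to 51.2% in the other 3. With activation set at 3 UMIs or more, the differences of Lag3 (-0.07) and Ctla4 (-0.07) were not called.

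In regulatory T cells Ctla4 was 448 and 486 CPM in WT and 870.0 and 813 CPM in PD-L1 KO, so that the groups did not overlap. The difference of 0.83 ± 0.27 had an unadjusted p of 0.0121 and an edgeR adjusted p of 0.382, and was not called. The cells with a Ctla4 UMI were 66.7% and 73.3% in WT and 86.7% and 91.7% in PD-L1 KO, of 12 to 15 cells each. Il2ra, the regulatory T cell gene of the IL-2 receptor, moved alongside, at 67.9 and 152 CPM in WT and 450.0 and 399 in PD-L1 KO. Ncr1, an NK cell gene, stood at 217 CPM in WT 1 and at 0 in the other 3 libraries. The part of either gene's cells in the Ctla4 values was not tested. Vsir did not pass the filter and had 9 and 13 UMIs in WT and 2 and 1 in PD-L1 KO, or 122 and 197 against 30.0 and 15.9 CPM. Tox differed by -0.19 ± 0.49.

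In conventional CD4 cells Ctla4 (-0.01 ± 0.31), Tox (0.51 ± 0.38), Cd96 (-0.54 ± 0.38) and Vsir (-0.11 ± 0.35) were not called, and in NK cells Cd160 differed by -0.28 ± 0.48. In non-activated CD8 cells Ctla4 differed by 0.54 ± 0.46, Tox by 0.36 ± 0.42, Cd96 by -0.21 ± 0.35 and Vsir by -0.44 ± 0.34. In monocytes and macrophages Havcr2 was 44.5 and 46.7 CPM in WT and 57.5 and 54.5 in PD-L1 KO, which did not overlap, but the difference of 0.35 ± 0.19 was not called (edgeR adjusted p 0.693). It read -0.30 (adjusted p 0.881) after thinning. Tox had 11 and 11 UMIs in WT and 8 and 4 in PD-L1 KO there, a difference of -1.40 ± 0.54 (unadjusted p 0.0319, adjusted p 0.646). In dendritic cells Havcr2 differed by -0.60 ± 0.31, Entpd1 by -0.20 ± 0.33 and Vsir by -0.22 ± 0.35 (adjusted p 1 each).

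Whether the difference between PD-L1 KO and WT was itself another in regulatory T, conventional CD4 or NK cells than in activated CD8 cells was tested as an interaction. Of the 4, 6 and 6 genes tested 0 were called, against 0.0411% of all genes in the first and 0% in the other 2. In simulated data the test for NK cells recovered 44.5% of genes changed 4-fold, so large differences can be missed. At an unadjusted p under 0.05 were Vsir in regulatory T cells (-2.63 ± 0.90, p 0.00827, edgeR adjusted p 1) and Cd160 in NK cells (-2.06 ± 0.90, p 0.0351, adjusted p 1).

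**Figure D5:**
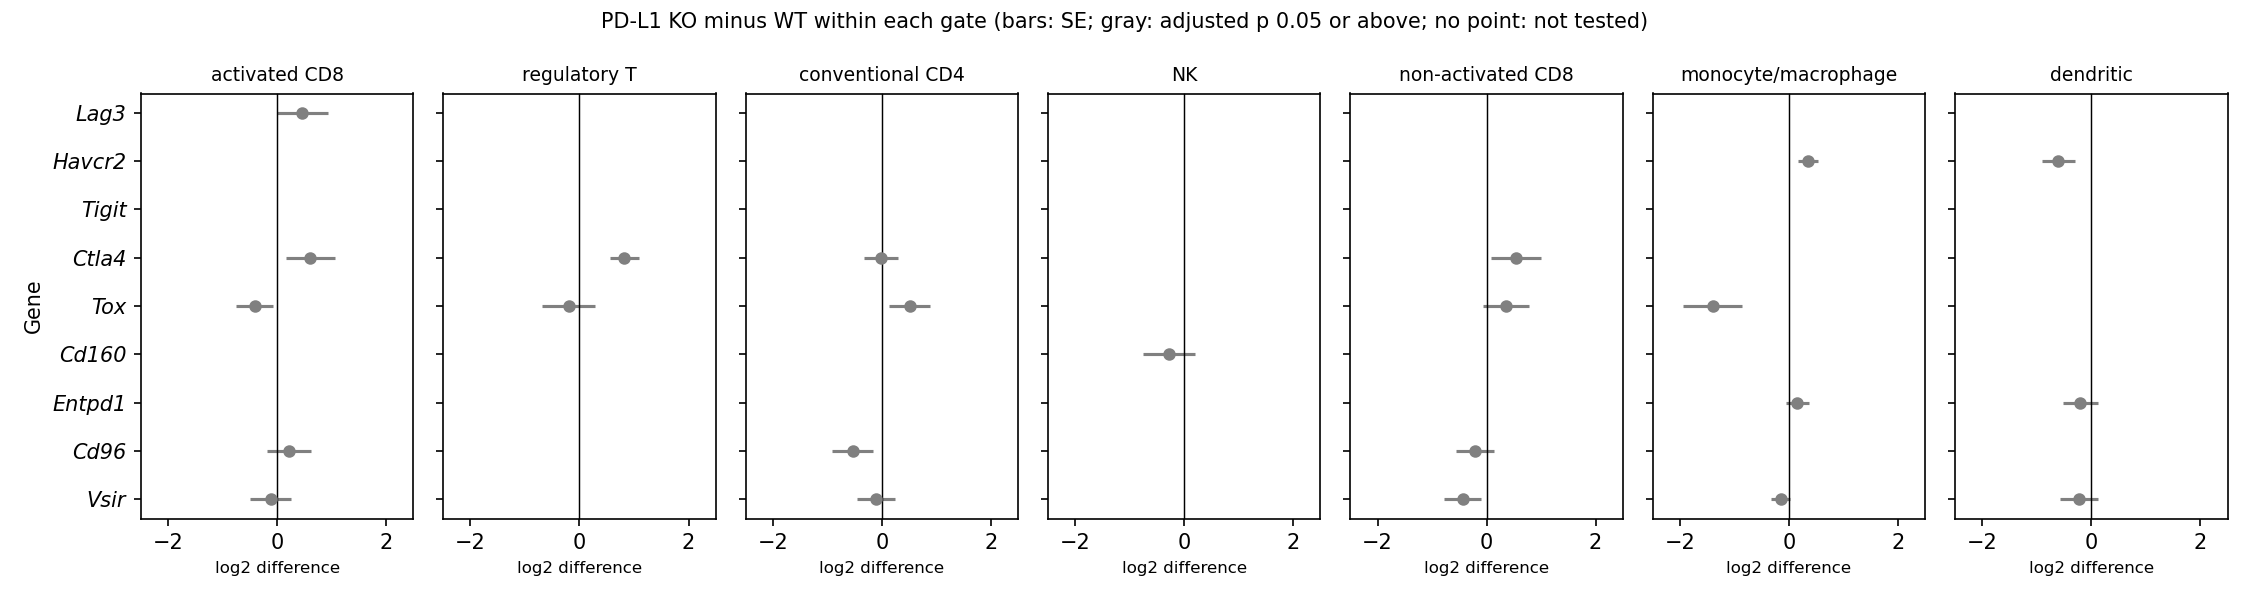
Log2 differences of PD-L1 KO minus WT (horizontal axis, bars are standard errors) for each gene in 7 types, 1 panel each, gray where the edgeR adjusted p was 0.05 or above; genes that did not pass the filter have no point. All points are gray, and Ctla4 in regulatory T cells (0.83) and Tox in monocytes and macrophages (-1.40) lie farthest from 0 for their error.

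The 19 partners and counter-receptors and the 20 other inhibitory genes held no called gene in any of the 7 types either. The median log2 difference of the partners was -0.31 in regulatory T, -0.12 in conventional CD4, -0.04 in activated CD8 and -0.01 in dendritic cells. It was 0.22 in NK and 0.11 in non-activated CD8 cells. In monocytes and macrophages 14 partners could be tested, with a median log2 difference of 0.27 beside 0.00 over all genes. H2-Eb1, a chain of MHC class II that LAG-3 binds, differed by 0.54 ± 0.10 (unadjusted p 0.000707, edgeR adjusted p 0.63) and Lgals9, a ligand of TIM-3, by 0.72 ± 0.19 (unadjusted p 0.00438, adjusted p 0.646). Tcf7 differed by -0.47 ± 0.22 in conventional CD4 cells (adjusted p 0.425).

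For each gene genes with a similar mean level over the 13 types were listed, by Pearson's r of log2(CPM + 10) among genes with at least 100 UMIs. The points share libraries and each type has its own depth, so r is a description. Ctla4 was most like Cd5 (r 0.98), Icos (0.97) and Izumo1r (0.97), and Tox like Zap70 (0.98), Trbc2 (0.97) and Lat (0.97). Among the genes similar to Cd96 were Gm29243 (0.98) and Zap70 (0.98). Cd160 was most like Klrc2 (0.98), Cst7 (0.95) and Ifng (0.95). Havcr2 was most like Bcl2a1d (0.91), Clta (0.90) and Slc25a13 (0.90), Entpd1 like Arpc3 (0.93), Dynlt1f (0.90) and Crlf2 (0.90), and Vsir like Pgs1 (0.89), Rhog (0.79) and 1110008F13Rik (0.79). Lag3 had no close match, with Nmrk1 (0.81), Isoc2b (0.79) and Mrps23 (0.78) first. Tigit had too few UMIs.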

How the data were processed

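Lung leukocytes from 4 libraries (2 labelled WT, 2 labelled PD-L1 KO) were profiled with the 10x 3' version 3 kit, and the submitters' processing notes name Cell Ranger 3.1.0, STAR and mm10. The deposited values are raw UMI counts, whole numbers per the file headers, for each gene in each barcode. The kit reads 3' ends, so isoforms are not told apart.

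Barcodes with fewer than 200 genes or over 10% mitochondrial UMIs (1126), and those with the highest Scrublet scores (scanpy 1.11.5) at 0.8% per 1000 barcodes (216, 2.08%), were left out. Cells were gated on raw UMIs; 6053 met 1 gate, 2446 more than 1 lineage and 555 none. Monocyte/macrophage cells needed at least 3 UMIs of Csf1r, the C1q genes and Ccr2, and B cells at least 3 of Cd79a, Cd79b and Ms4a1. Counts were summed per library and gate, filtered by filterByExpr, TMM-scaled and tested by edgeR 4.0.16 (quasi-likelihood, R 4.3.3, adjusted p 0.05). DESeq2 1.42.0, no filter, other gates, thinning to 1500 or 1000 UMIs and leaving out each library were alternatives. The fits were tested on simulated data with genes changed 4-fold, at a fixed spread not taken from the libraries. PD-L1 KO minus WT in activated CD8 cells recovered 95% of them, and regulatory T minus conventional CD4 cells 100%. The interaction of NK against activated CD8 cells recovered 44.5%. Intervals are exact 95% and cover counting error only.

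The labels do not say whether libraries are separate mice, so the spread behind every p-value may be technical only. The same-numbered libraries share a number with no stated pairing. The 9 genes, their partner lists and the gates were chosen with earlier results of these data known. All 9 genes are named in every comparison, with at most 4 genes of smallest p from each list, and the 3 most similar genes by level; some genes these rules pick are not reported here.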

Additional observations from a re-analysis of the deposited data

Results flagged for a closer look

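T cells that fell in no subset, 364 in all, were outside the comparisons above: they met the Cd3 gate but none of the CD8, regulatory T and conventional CD4 gates. They carried 4 of the 9 genes in every library above the limit that a count of 0 allows, which is why they are listed. Ctla4 stood at 125 ± 55.9 CPM (SD, n = 4), Tox at 94.0 ± 27.0, Cd96 at 61.1 ± 21.6 and Vsir at 114 ± 16.6. In these cells Trac was found in 65.6% to 75% of cells per library, Gata3 in 22.7% to 27.9% and the gamma-delta chain Trdc in 8.18% to 13.4%. Lag3 UMIs numbered 0 and 1 in WT 1 and WT 2 and 28 and 15 in PD-L1 KO 1 and PD-L1 KO 2, in 3 of 97 and 6 of 61 cells of the latter, where Cd8a had 36 and 54 UMIs. This difference between the groups was not tested.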

How the results depend on the processing

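Depth limits the rare genes: regulatory T cells numbered 12 to 15 a library, and Tigit, Havcr2, Cd160 and Entpd1 were below the filter in most fits. The cause of the changes listed here was not tested. The count of genes called between PD-L1 KO and WT stayed at 0 in all 7 types under every setting but 1: without WT 1, 2 were called in activated CD8 cells (0 to 2 over the libraries left out).

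Of the 4 genes called in activated against non-activated CD8 cells, 1 was called in DESeq2, 1 with mixed-lineage cells kept, 1 after thinning to 1500 UMIs and 1 to 4 with a library left out. For regulatory T against conventional CD4 cells (1), the count was 3 without Ccr2 in the monocyte gate and 1 to 2 with a library left out. For activated CD8 against conventional CD4 cells (2), it was 1 in DESeq2, 4 with no filter, 1 after thinning and 1 to 2 with a library left out. For regulatory T against activated CD8 cells (2) it was 4 with no filter, 4 with mixed-lineage cells kept and 1, Ctla4, after thinning. For NK against activated CD8 cells (5) it was 3 in DESeq2, 3 with mixed-lineage cells kept, 1 after thinning and 3 to 5 with a library left out. The Pdcd1 split (2) gave 1 to 2 with a library left out. Counts over all genes also moved: in DESeq2, 1071 became 412, 324 became 206, 794 became 254, 202 became 82 and 1135 became 576, in the order of the 5 comparisons between gates just given, and with mixed-lineage cells kept they were 98, 138, 126, 89 and 686. After thinning they were 275, 161, 217, 78 and 445. For PD-L1 KO against WT without WT 1, 73 genes were called in activated CD8 cells against 1, and 353 in monocytes and macrophages against 0. The share of activated CD8 cells with 2 or more of the genes, 59.4%, became 17.7% at 1500 and 15.9% at 1000 UMIs.

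Most differences that changed sign were not called with all libraries and settings as reported; Havcr2 between activated CD8 and conventional CD4 cells was called. With a library left out, PD-L1 KO minus WT ranged from -0.15 to 2.28 for Lag3, -0.66 to 0.063 for Tox, -0.015 to 0.70 for Cd96 and -0.21 to 0.067 for Vsir in activated CD8 cells. It ranged from -0.54 to 0.20 for Tox in regulatory T cells, -0.21 to 0.14 for Ctla4 and -0.61 to 0.21 for Vsir in conventional CD4 cells, and -0.81 to 0.15 for Cd160 in NK cells. It ranged from -0.88 to 0.16 for Vsir in non-activated CD8 cells, -0.034 to 0.43 for Entpd1 in monocytes and macrophages, and -0.47 to 0.17 for Entpd1 and -0.75 to 0.17 for Vsir in dendritic cells. Between gates, it ranged from -0.41 to 1.00 for Cd160 in NK against activated CD8 cells, -0.13 to 0.29 for Ctla4 and -0.075 to 0.30 for Cd96 in activated CD8 against conventional CD4 cells, -0.84 to 0.19 for Vsir in regulatory T against conventional CD4 cells and -0.52 to 0.43 for Vsir in regulatory T against activated CD8 cells.

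With activation set at 3 UMIs, Lag3 and Ctla4 in activated CD8 cells read -0.069 and -0.067. Without Ccr2 in the monocyte gate, Cd96 in activated CD8 cells read -0.28, Tox in regulatory T cells 0.24, Ctla4 in conventional CD4 cells 0.41, Cd160 in NK cells 0.50, Ctla4 of activated CD8 minus conventional CD4 cells -0.22 and Vsir of regulatory T minus conventional CD4 cells 0.16. With mixed-lineage cells kept, Tox in regulatory T cells read 0.86, Ctla4 in conventional CD4 cells 0.49, Cd160 in NK cells 0.20, Cd96 between the CD8 gates 0.039, Havcr2 and Ctla4 of activated CD8 minus conventional CD4 cells -0.073 and -0.23, and Vsir of regulatory T minus activated CD8 cells -0.11. With Il2ra and Ikzf2 in the gates, Tox in regulatory T cells read 0.034 and Vsir in conventional CD4 cells 0.15. After thinning, Havcr2 in monocytes and macrophages read -0.30 and Ctla4 of activated CD8 minus conventional CD4 cells -0.32. In DESeq2, the latter read -0.061 and Vsir of regulatory T minus activated CD8 cells -0.14, and with no filter -0.10.

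Same-numbered libraries deviated together with r 0.12 in activated CD8, 0.06 in regulatory T, -0.07 in conventional CD4, 0.00 in NK, -0.07 in non-activated CD8, -0.22 in monocyte/macrophage and -0.19 in dendritic cells. With the number as a replicate block, 0 of the 9 genes were called in any type, and the genes called in all rose from 1 to 25 in regulatory T cells, 16 to 27 in conventional CD4 cells, 0 to 7 in NK cells and 1 to 2 in activated CD8 cells. With the numbers crossed, 100 genes were called in monocyte/macrophage and 0 in dendritic cells, 0 of the 9 in either.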
